A study of Mus musculus with 2 samples.

Results

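Heat shock proteins and the co-chaperones that work with them were followed in sorted microglia of the mouse spinal cord. They are 10 genes, chosen by symbol, of the 32285 genes in the deposited count table: Hspa1a, Hspa1b, Hspa8, Hsp90aa1, Hsp90ab1, Hspd1, Hspe1, Dnajb1, Hsph1 and Bag3. The data are single-cell RNA sequencing (scRNA-Seq) counts of 2 libraries, a control library and a 4E-BP1–cKO library, and a barcode was kept as a cell when it had over 300 detected genes and under 5% of its molecules on mitochondrial genes. That left 1147 of 1216 barcodes in the control library and 445 of 474 in the 4E-BP1–cKO library.

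The 4E-BP1–cKO mice (Eif4ebp1 fl/fl:TMEM119 CreERT2) carry a floxed gene of the translation repressor 4E-BP1, which is deleted by a tamoxifen-inducible Cre under the promoter of the microglial gene Tmem119. The control library is labelled WT, and the study elsewhere calls its mice Eif4ebp1 fl/fl. All mice were male, were given 4-hydroxytamoxifen from postnatal day 4 to 9, and were used at 8 to 10 weeks. Spinal cord was digested with collagenase for 45 minutes at 37 °C, and CD45 low, CD11b high, CX3CR1 high cells were sorted. The labels and methods do not state how many mice went into a library, and 1 library per genotype allows no test between genotypes, so that library and genotype cannot be told apart in anything that follows. Intervals are 95% intervals and cover counting error only. They treat molecules as independent, which clumping of a gene's molecules in few cells makes too narrow.

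Chaperones bind unfolded or newly made proteins and help them fold, and ATP drives the HSP70 and HSP90 families through cycles of binding and release. Some of their genes are transcribed at a steady level in almost every cell, whereas others are kept low and are switched on when heat, oxidation or another stress unfolds proteins. Heat shock factor 1 then assembles as a trimer on heat shock elements, which are inverted repeats of the unit GAA near the start of these genes. Taking microglia out of tissue with warm enzymes is known to switch on immediate early genes such as Fos and Jun, and stress genes with them. The 10 genes were split by these roles into an inducible set and a constitutive set. The inducible set holds the stress forms of HSP70 (Hspa1a, Hspa1b), the HSP40 co-chaperone Dnajb1, the HSP110 protein Hsph1, which exchanges the nucleotide of HSP70, the HSP70-binding protein Bag3, and the stress form of HSP90 (Hsp90aa1). The constitutive set holds the steady forms of HSP70 (Hspa8) and HSP90 (Hsp90ab1) and the mitochondrial chaperonin HSP60 (Hspd1) with its lid HSP10 (Hspe1). The split is background knowledge, and it is not strict, since Hspa8, Hspd1 and Hspe1 also respond to heat.

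Sequence that matches the pattern of a heat shock element can be read beside some of these genes. RefSeq (build GRCm38.p6) gave a window of 250 bases before to 50 after the annotated start for 7 of the 10 genes; Hspa8, Hsp90aa1 and Hsp90ab1 had none. The windows were searched on both strands for 2 opposed units (GAANNTTC or TTCNNGAA) and for 3 (GAANNTTCNNGAA or TTCNNGAANNTTC), so that each 3-unit match also holds 2 overlapping 2-unit matches. The following stretches show matches of 5 of the genes, with the matched bases in capitals.
Hspa1a, chr17:34972242-34972271, minus strand: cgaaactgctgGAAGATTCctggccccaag
Hspa1b, chr17:34959324-34959353, minus strand: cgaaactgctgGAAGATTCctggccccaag
Hsph1, chr5:149636351-149636380, minus strand: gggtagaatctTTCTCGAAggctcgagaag
Hsph1, 3-unit match after the start, chr5:149636287-149636311, minus strand: aatgctgcagaTTCTGGAAAGTTCt
Hspe1, chr1:55088053-55088082, plus strand: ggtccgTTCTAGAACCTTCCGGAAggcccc
Hspd1, chr1:55088053-55088082, minus strand: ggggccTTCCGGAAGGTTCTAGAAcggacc
The site of Hspa1a and that of Hspa1b are the same 30 bases, 104 bases before each start. Their whole windows differed at 4 of 300 bases (98.7% identity), at C44T, T47C, T249G and C276T with Hspa1a first and positions counted from 1 at the 5′ end, and 3 of these lay before the start. Hspe1 and Hspd1 are neighbours on chromosome 1 that run away from each other, so that they share 1 stretch, which reads on opposite strands and holds 3 overlapping 2-unit matches that together form 2 3-unit matches. The gene models, Hspd1 at chr1:55077833-55088243 and Hspe1 at chr1:55088148-55091317, overlap at their starts, and the stretch lies inside that of Hspd1. It is in the window before the second annotated start of Hspd1 and not in that before the first. Hspa1a lies at chr17:34969359-34972156 and Hspa1b at chr17:34956429-34959238, both on the minus strand. Hsph1 had the same 3 matches in both of its 2 windows, of which 1 lay before the start and 2 overlapped after it and formed 1 3-unit match, and Bag3 had 1 after its start. Dnajb1 had none in either of its 2 windows, nor had Fos, and Jun had 1. A 2-unit match is common, standing in 15.1% of all 32851 windows, whereas a 3-unit match stood in 0.603%. A match is a run of letters, and no binding was measured.

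Both libraries were microglia by their markers. All 10 microglial markers were detected, 1081 control and 410 4E-BP1–cKO cells had at least 3 of them, and for each of 10 other cell types 0 to 2 cells per library had at least 3 of its markers. Most of these types have only 3 listed markers, so that a cell needed all 3. Where 1 of the 3 had 0 UMIs, as Ly6c2 of the monocytes in both libraries, no cell could pass. Any oligodendrocyte marker was found in 14.3% of control and 17.3% of 4E-BP1–cKO cells, and any endothelial marker in 11.2% and 7.19%. The summed level of the 4 oligodendrocyte markers was 56.2 CPM (counts per 1000000 UMIs of the library) in the control and 103 CPM in the 4E-BP1–cKO library, that of the 3 endothelial markers 61.6 and 28.8 CPM, and the part of such RNA in the results was not tested. Kept cells had a median of 3053 UMIs (unique molecular identifiers, 1 per captured RNA molecule) in the control and 2776 in the 4E-BP1–cKO library, over totals of 4803562 and 1734332 UMIs, and the median share of UMIs on ribosomal protein genes was 2.22% and 3.53%. The libraries shared 0 cell barcodes. The targeted gene Eif4ebp1 had 95 UMIs (19.8 CPM) in the control and 51 (29.4 CPM) in the 4E-BP1–cKO library. These are 3′ end counts and do not check a deletion elsewhere in the gene.

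The inducible set was lower in the 4E-BP1–cKO library than in the control library, and the constitutive set was at about the same level in both. Summed over the kept cells, the 6 inducible genes had 23000 UMIs or 4788 CPM (interval 4726 to 4850) in the control and 4698 UMIs or 2709 CPM (2632 to 2787) in the 4E-BP1–cKO library. The log2 ratio of 4E-BP1–cKO to control, computed on CPM + 1 as are the log2 ratios below, was -0.82. The level was 1.77-fold lower (1.71 to 1.82), where fold values and intervals use the CPM with nothing added. The 4 constitutive genes had 2885 CPM in the control and 2807 CPM in the 4E-BP1–cKO library, with a log2 ratio of -0.04 and a ratio interval of 0.942 to 1.01. Of the 10 genes, Hspa1b and Hsph1 were lower by over 2-fold and none was higher by over 2-fold, where 3.87% of the 11784 genes with at least 20 UMIs were lower and 0.696% higher by that much. The median log2 ratio was -0.67 over the inducible genes and -0.19 over the constitutive genes, beside -0.05 over all genes tested.

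**Figure D1:**
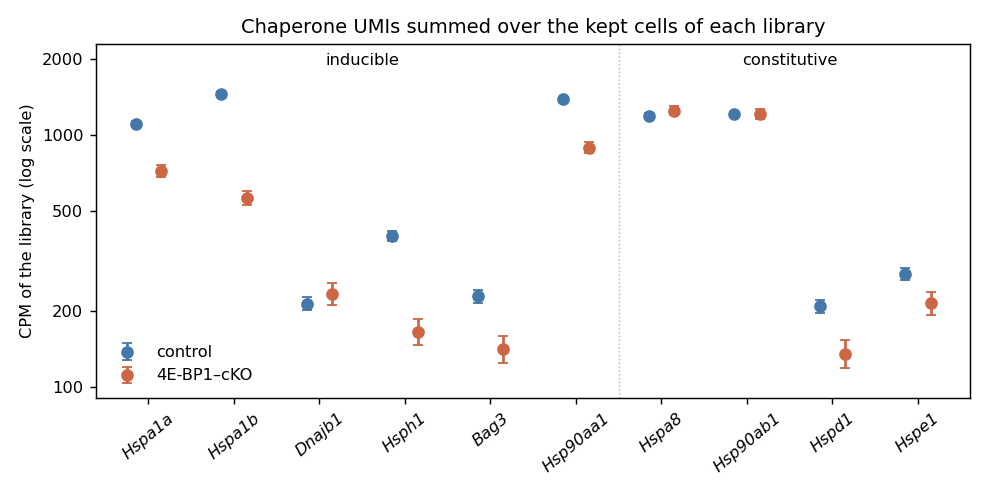
Level of each chaperone gene in CPM (log axis) over all kept cells of the control (blue) and 4E-BP1–cKO (orange) library, 1 library each; bars are 95% Poisson intervals for counting error only. Hspa1b stands at 1452 and 562 CPM and Hsph1 at 397 and 165 CPM, while the points of Dnajb1, Hspa8 and Hsp90ab1 lie close together.

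Among the HSP70 genes the stress forms differed between the libraries and the steady form did not beyond counting error. Hspa1b had 6974 UMIs (1452 CPM) in the control and 975 UMIs (562 CPM) in the 4E-BP1–cKO library. Its log2 ratio of -1.37 (2.58-fold lower, 2.41 to 2.76) was below those of nearly all genes, since 1.49% of the genes tested had a lower one. Hspa1a, which lies beside it on chromosome 17 and encodes a nearly identical protein, had 1110 CPM in the control and 717 CPM in the 4E-BP1–cKO library, a log2 ratio of -0.63 (1.55-fold lower, 1.45 to 1.65). Hspa8 had 1190 and 1248 CPM and a log2 ratio of 0.07, with a ratio interval of 0.997 to 1.10. Of the last 500 bases of the Hspa8 transcript, 49.4% of the 90-base windows also occur in other annotated transcripts, all of them pseudogene copies, so that the count of Hspa8 is less certain.

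The partners of HSP70 went different ways. Hsph1 had 1906 UMIs (397 CPM) in the control and 286 (165 CPM) in the 4E-BP1–cKO library, with a log2 ratio of -1.26 (2.41-fold lower, 2.12 to 2.73). Bag3, which links HSP70 to the removal of aggregated proteins, had 228 CPM in the control and 141 CPM in the 4E-BP1–cKO library, a log2 ratio of -0.69 (1.62-fold lower, 1.41 to 1.87). Dnajb1, which hands substrates to HSP70 and is itself a target of heat shock factor 1, had 214 and 234 CPM and a log2 ratio of 0.13, with a ratio interval of 0.972 to 1.23. It was the only inducible gene with a ratio above that of the median gene.

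The HSP90 pair split in the same manner. The stress form Hsp90aa1 had 1388 CPM in the control and 890 CPM in the 4E-BP1–cKO library (log2 ratio -0.64, 1.56-fold lower, 1.48 to 1.65), whereas the steady form Hsp90ab1 had 1207 and 1211 CPM (log2 ratio 0.00, ratio interval 0.954 to 1.05). The mitochondrial pair, placed in the constitutive set, was lower in the 4E-BP1–cKO library. Hspd1 had 208 CPM in the control and 135 CPM in the 4E-BP1–cKO library (log2 ratio -0.62, 1.54-fold lower, 1.34 to 1.79), and Hspe1 had 280 and 214 CPM (log2 ratio -0.38, 1.31-fold lower, 1.16 to 1.47). The level of the constitutive sum rests on Hspa8 and Hsp90ab1, which hold most of its UMIs.

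By the medians of their lists, the remaining chaperones did not follow the inducible set, although single genes were lower. Over all 11784 genes tested, 5169 had a log2 ratio above 0 and 6615 below. Of 19 co-chaperones and further chaperones of the HSP70 and HSP90 machinery, 14 were above 0 and 5 below, with a median of 0.09 and none past 2-fold. The HSP40 gene Dnaja1 (2798 and 785 UMIs, log2 ratio -0.36) and Stip1, which bridges HSP70 and HSP90 (327 and 90 UMIs, -0.39), had the lowest of these ratios. Their ratio intervals, 0.717 to 0.841 for Dnaja1 and 0.597 to 0.965 for Stip1, excluded 1. The 8 subunits of the chaperonin TRiC had a median of 0.13 and a range from -0.26 (Cct4) to 0.49 (Cct6a). The 16 endoplasmic reticulum chaperones had a median of 0.04, 9 above 0 and 7 below, with Hspa5, the HSP70 of that compartment, at 0.29. Of 7 mitochondrial chaperones and proteases 6 were above 0, and Hspa9, the mitochondrial HSP70, was the highest at 0.60 (328 and 180 UMIs), opposite in sign to Hspd1 and Hspe1. Of the 3 small heat shock proteins, Hspb1 had enough UMIs (462 and 193) and a log2 ratio of 0.21.

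The heat shock factors were scarce. Hsf1 had 155 UMIs in the control and 32 in the 4E-BP1–cKO library (log2 ratio -0.77, ratio 1.75-fold lower, 1.19 to 2.65), and Hsf2 had 142 and 27 (-0.88). At equal depth 2.65% of control and 1.33% of 4E-BP1–cKO cells had a Hsf1 UMI. The oligodendrocyte gene Mbp, which microglia should lack, stood at 2.46% and 2.67%. The astrocyte gene Aqp4 stood at 0.66% and 0.27%, and the neuronal gene Snap25 at 0% and 0.27%. The part of background RNA in the Hsf1 shares was not tested. The 15 immediate early genes were mostly on the other side of 0. Of them 14 had a log2 ratio above 0, beside 5169 of all 11784 genes tested. Their median was 0.40, and Ier2 was past 2-fold at 1.05. Fos (2186 and 2671 CPM, log2 ratio 0.29) and Jun (3961 and 4467 CPM, 0.17) were both higher in the 4E-BP1–cKO library, in which Hspa1a and Hspa1b were lower. Of stress genes outside these lists, Ubb lay at 0.29, Sqstm1 at 0.26 and Hmox1 at -0.15, and of 6 unfolded protein response genes the 4 with enough UMIs lay between -0.06 (Ddit3) and 0.46 (Atf4).

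The difference of the inducible set was also present within narrower groups of cells, which were chosen after seeing the data. Cells were split at 3% of UMIs on ribosomal protein genes, a share on which 657 control cells (57.3%) and 212 4E-BP1–cKO cells (47.6%) fell below the limit. With ribosomal protein UMIs left out of the total, the inducible log2 ratio of 4E-BP1–cKO to control was -0.85 in the cells under 3% and -0.81 in the others. The constitutive one was -0.30 under 3% and 0.02 in the others. Under 3%, 4 of the 10 genes were lower by over 2-fold, namely Hspa1a (-1.04), Hspa1b (-1.29), Hsph1 (-1.08) and Hspd1 (-1.12), where 6.0% of 9085 genes were. In the others 2 of the 10 were, namely Hspa1b (-1.41) and Hsph1 (-1.33), where 4.08% of 10369 genes were, while Hspa1a stood at -0.49 and Hspd1 at -0.36. Among cells under and over the median of 2976 UMIs the inducible ratio, also without ribosomal protein UMIs in the total, was -0.68 and -0.83. The ratio of Bag3 had an interval of 0.805 to 1.31 in the cells under the median, which includes 1, and of 0.417 to 0.594 in those over it.

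**Figure D2:**
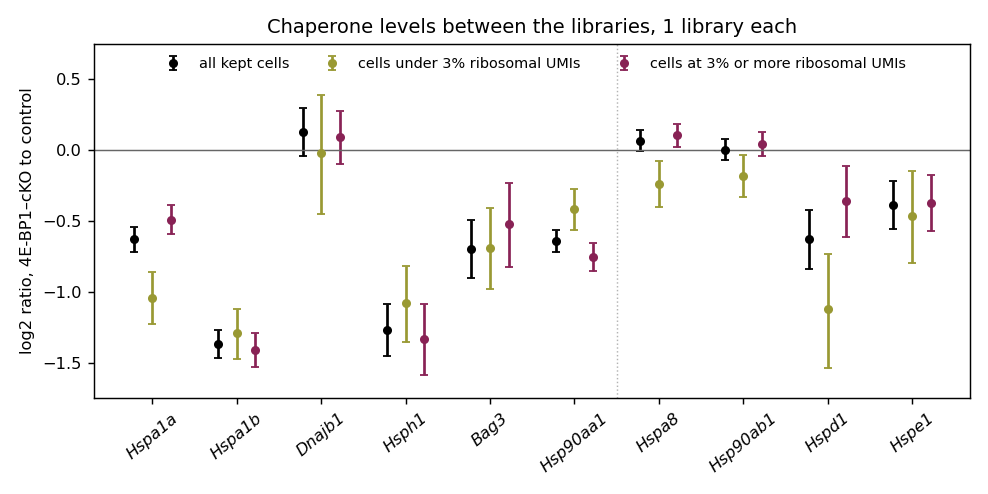
Log2 ratio of 4E-BP1–cKO to control for each chaperone gene in all kept cells (black), in cells under 3% ribosomal protein UMIs (olive) and in cells at 3% or more (purple); bars are 95% intervals for counting error, and the line at 0 marks equal levels. Hspa1b and Hsph1 lie below -1 in all 3, and Dnajb1 has intervals that include 0 in all 3.

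The stress forms were unevenly spread over cells. At full depth the inducible set took a median of 0.251% of a control cell's UMIs, with 1.15% at the 90th percentile and 6.23% in the highest cell. The same 3 values were 0.153%, 0.640% and 2.83% for 4E-BP1–cKO cells. The constitutive set took a median of 0.217% and 0.208%. The highest count in 1 cell was 195 UMIs for Hspa1b in the control and 151 for Hspa1a in the 4E-BP1–cKO library, where the whole library held 1244 Hspa1a UMIs.

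To compare cells at equal depth, each was thinned at random to 872 UMIs, the 10th percentile of all kept cells, so that 89 shallower cells of the control and 70 of the 4E-BP1–cKO library dropped out. At least 1 inducible UMI was then found in 77.6% of 1058 control cells (75 to 80.1%) and in 67.7% of 375 4E-BP1–cKO cells (62.7 to 72.4%). Unthinned, the shares were 92.2% and 82.2%. The constitutive set was found in 78.4% and 77.9% of thinned cells. Cells with 3 or more different inducible genes made up 28.0% of the control and 14.4% of the 4E-BP1–cKO library, and those with 3 or more constitutive genes 12.1% and 9.07%.

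By gene, the shares at equal depth differed most for the HSP70 stress forms. Hspa1b was found in 42.9% (39.9 to 46.0%) of control and 22.1% (18.0 to 26.7%) of 4E-BP1–cKO cells, and Hspa1a in 40.3% (37.3 to 43.3%) and 26.9% (22.5 to 31.7%). Hsph1 was found in 19.2% (16.9 to 21.7%) and 11.2% (8.19 to 14.8%). The intervals of these 3 genes did not overlap between the libraries, and those of the other 7 did. How often the intervals of other genes fail to overlap was not tested, so these counts have no background to be judged against. The intervals cover counting error within each library, and no difference between genotypes is called from them. Bag3 was found in 11.3% and 8.0%, Hspd1 in 13.3% and 8.80%, and Hsp90aa1 in 46.6% and 40.3%. The shares were closer for Dnajb1 (12.6% and 15.2%), Hspa8 (50.9% and 49.1%), Hsp90ab1 (52.4% and 55.7%) and Hspe1 (15.4% and 15.7%). In cells that carried it, Hspa1b averaged 2.95 UMIs in the control and 2.40 in the 4E-BP1–cKO library, and Hsp90aa1 averaged 2.32 and 1.85. All 10 genes were found in more cells than Mbp, at 2.46% and 2.67%.

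**Figure D3:**
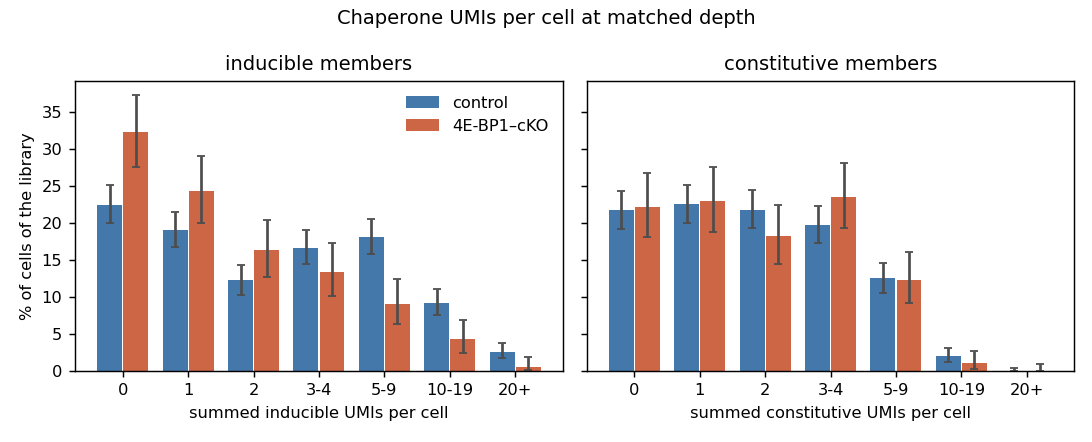
Share of cells (y axis, %) by the summed UMIs of the inducible (left) and constitutive (right) genes per cell after thinning to equal depth; bars are the control (blue, 1058 cells) and 4E-BP1–cKO (orange, 375 cells) library with exact 95% binomial intervals. On the left 22.4% of control and 32.3% of 4E-BP1–cKO cells have 0 UMIs and the classes of 5 or more are taller in the control, while on the right the libraries stay close.

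The variance of a gene's thinned UMIs over cells, divided by their mean, would be about 1 if its molecules were scattered at random. Over all genes with a mean of at least 0.1 UMIs the median of this ratio was 1.22 in both libraries. It was 4.36 for Hspa1b in the control and 3.47 in the 4E-BP1–cKO library, 3.22 and 3.39 for Hspa1a, and 3.09 and 2.33 for Hsp90aa1. At least 96.4% of these genes had a lower ratio than each of the 3 in each library. Hspa8 stood at 1.57 and 1.74 and Hsp90ab1 at 1.82 and 1.54. Dnajb1, at 1.39 and 1.18, had the lowest ratio of the inducible genes. It was also scarce, with a mean of 0.160 UMIs per thinned control cell beside 1.27 for Hspa1b. The ratios were not matched on the mean, so they do not rank the genes by evenness alone. The 10% of cells with the most inducible UMIs held 41.5% of them in the control and 46.9% in the 4E-BP1–cKO library, beside 33.8% and 31.5% for the constitutive set.

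Ranked by Spearman's rho, Hspa1a and Hspa1b went together over cells more than any other pair of the 10 genes. At equal depth Hspa1b was found in 62.9% of control cells with Hspa1a and in 29.4% of those without it, and in 46.5% and 13.1% of 4E-BP1–cKO cells. Spearman's rho of the 2 genes, over cells that share a library and a depth, was 0.43 in the control and 0.41 in the 4E-BP1–cKO library. Hsph1 went with Hspa1b, which was found in 70.0% of control cells with Hsph1 and 36.5% without, and in 57.1% and 17.7% of 4E-BP1–cKO cells (rho 0.32 and 0.33). All other pairs of the 10 genes had a rho of 0.30 or less in both libraries, and in counts this sparse nothing is read from a low rho. Among them were Hspd1 and Hspe1 (0.23 and 0.25) and Dnajb1 and Bag3 (0.00 and -0.01). Despite that rho, Hspe1 was found in 34.8% of control cells with Hspd1 and in 12.4% of those without it. In the 4E-BP1–cKO library these shares were 45.5% and 12.9%, the first over 33 cells.

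The 2 stress forms of HSP70 differed in proportion between the libraries. Hspa1a made up 43.3% (42.4 to 44.2%) of their joint UMIs in the control and 56.1% (54.0 to 58.1%) in the 4E-BP1–cKO library. The share was 43.8% and 43.1% in control cells under and over 3% ribosomal protein UMIs, and 48.1% and 58.9% in 4E-BP1–cKO cells. In the 4E-BP1–cKO library a few cells weighed on it, and without the 10 cells with the most UMIs of the pair it was 52.8% (50.2 to 55.4%), beside 43.3% in the control. The last 500 bases of the 2 transcripts have 0 windows of 90 bases in common, so reads from their ends can be told apart, although the coding parts are nearly the same.

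Summed by set, the chaperones were higher in the cells high in Fos and Jun than in those low in them. Cells of each library were ranked by the share of their UMIs on Fos and Jun together and divided into tertiles of 382 or 383 control and 148 or 149 4E-BP1–cKO cells, and levels are CPM of the UMIs without Fos and Jun. The inducible set was at 2445, 4328 and 6809 CPM in the low, middle and high tertile of the control, and at 2027, 2070 and 3794 CPM in the 4E-BP1–cKO library. The constitutive set was at 1982, 2581 and 3778 CPM in the control and at 1835, 2537 and 3734 CPM in the 4E-BP1–cKO library. The inducible level of the libraries was therefore closest in the cells lowest in Fos and Jun, while the constitutive levels were close in all tertiles. The log2 ratio of the high to the low tertile was 1.48 in the control and 0.90 in the 4E-BP1–cKO library for the inducible set, and 0.93 and 1.02 for the constitutive set. At equal depth the inducible values were 1.47 and 1.26.

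By gene, 7 of the 10 were over 2-fold higher in the high tertile of the control, where 2.61% of 10136 genes were, and 3 of the 10 in the 4E-BP1–cKO library, where 4.89% of 6600 genes were. Hspa1b (log2 ratio 1.78) and Hspa1a (1.62) had the largest ratios in the control, and 0.90 and 0.83 in the 4E-BP1–cKO library. Dnajb1 had the largest in the 4E-BP1–cKO library, where it went from 91.3 CPM in the low to 364 CPM in the high tertile (1.98), and 1.44 in the control. Hspa8 stood at 1.16 and 1.36, Hsph1 at 1.01 and 1.13, Hsp90aa1 at 1.31 and 0.83, Hspe1 at 1.06 and 0.62, and Hspd1 at 0.92 and 0.78. Hsp90ab1 stood at 0.68 and 0.80, the smallest ratio in the control. Bag3 stood at 0.84 and 0.16, the smallest in the 4E-BP1–cKO library, where its ratio interval of 0.812 to 1.55 included 1. Not every gene rose from tertile to tertile. In the 4E-BP1–cKO library Hspa1a was at 611, 410 and 1086 CPM from low to high. Hsph1, Bag3 and Hspd1 were also lowest in its middle tertile, with intervals that overlapped those of the low tertile. In the control Bag3 was highest in the middle tertile. Which genes passed 2-fold was not the same in cells thinned to equal depth. How many of all genes pass at that depth was not computed, so the calls there have no background. The thinned 4E-BP1–cKO cells averaged 0.112 UMIs of Hspd1, 0.163 of Hsph1 and 0.187 of Hspe1. Whether the changes come from depth or from counting error was not tested. In cells thinned to equal depth, Hspa1a (1.45), Hspa1b (1.46), Hspd1 (1.65) and Hspe1 (1.01) were also past 2-fold in the 4E-BP1–cKO library and Hsph1 (0.96) was not, while in the control Hspd1 (1.09) passed and Hsph1 (0.69) did not. The immediate early gene Egr1, which the ranking did not use, stood at 1.81 and 1.69.

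Other properties moved with the tertiles. Median UMIs per cell were 2410, 2924 and 4472 from low to high in the control and 1964, 2821 and 3772 in the 4E-BP1–cKO library, and the share of cells under 3% ribosomal protein UMIs was 71.0%, 62.8% and 38%, and 64.4%, 47.3% and 31.1%. Within the cells under 3% the inducible ratio of high to low was 1.52 in the control and 1.37 in the 4E-BP1–cKO library, and within the others 1.64 and 0.79. For Hspa1b it was 1.70 and 2.05 under 3%, with intervals that overlapped, and 1.88 and 0.65 in the others. For Hspa1a it was 1.36 and 1.59 under 3%, also with overlapping intervals, and 1.93 and 0.73 in the others. The order of the libraries in these values thus differed between the classes, and this was not tested. Ranked by Fos alone, the inducible ratio over all kept cells was 0.93 and 0.98. Ranked by Jun alone, it was 1.34 and 0.87.

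**Figure D4:**
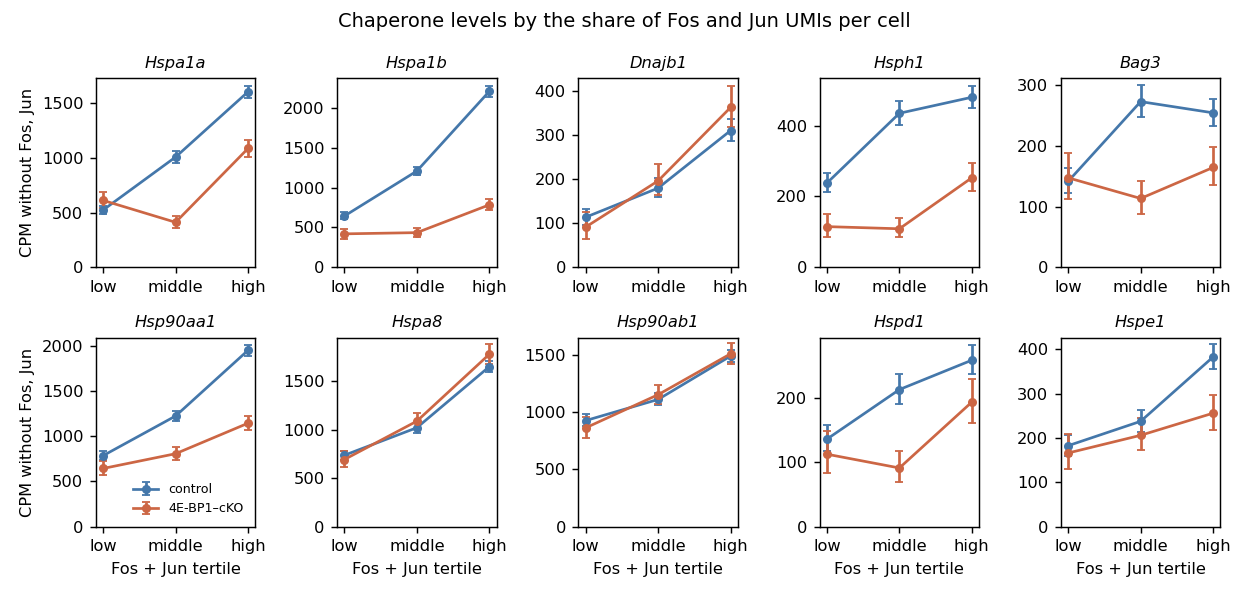
Level of each chaperone gene (CPM of UMIs without Fos and Jun, linear axes from 0) in the cells low, middle and high in the share of Fos and Jun UMIs, for the control (blue) and 4E-BP1–cKO (orange) library; bars are 95% Poisson intervals. Hspa8 and Hsp90ab1 climb alike in both libraries, whereas over all kept cells Hspa1b climbs from 644 to 2211 CPM in the control and from 419 to 784 CPM in the 4E-BP1–cKO library. Hspa1a, Hsph1, Bag3 and Hspd1 are lowest in the middle tertile of the 4E-BP1–cKO library.

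Of 1696 genes outside the 10 with at least 200 UMIs in each library, the one whose thinned UMIs per cell went most closely with the inducible sum was Jun, with Spearman's rho of 0.31 over 1058 control and 0.26 over 375 4E-BP1–cKO cells. Zfp36, Klf2, Egr1, Atf3, Fos, Jund, Dnaja1 and Wsb1 were among those that followed, ordered by the lower of the 2 values, which ran from 0.17 to 0.12. These are weak values over sparse counts of cells that share a library, and they are given as a description. The inducible sum had a rho of 0.08 and 0.06 with the UMIs per cell before thinning and of 0.01 and 0.03 with the ribosomal share, and the constitutive sum a rho of 0.20 and 0.27 with the ribosomal share.

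Cells under 3% ribosomal protein UMIs are a range on a continuous share and not a cell type. Some chaperones were higher in them than in the other cells and some were lower. There were 199 control and 67 4E-BP1–cKO cells between 2 and 4%. In CPM of the UMIs without ribosomal protein genes, Bag3 was at 354 CPM under 3% and 164 CPM in the other cells of the control, and at 219 and 114 CPM in the 4E-BP1–cKO library (log2 ratios 1.11 and 0.94). Hsph1 was also higher under 3%, at 498 and 364 CPM in the control and 235 and 145 CPM in the 4E-BP1–cKO library (0.45 and 0.70). Dnajb1 was the other way, at 115 and 300 CPM in the control and 113 and 319 CPM in the 4E-BP1–cKO library (-1.38 and -1.49). Hspa8 was likewise lower under 3%, with log2 ratios of -0.84 and -1.18.

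The difference of Bag3 in the control and those of Dnajb1 in both libraries and Hspa8 in the 4E-BP1–cKO library were past 2-fold. By that much, 6.24% of 11002 genes were higher and 11.9% lower under 3% in the control, and 7.79% of 7941 genes were higher and 15.6% lower in the 4E-BP1–cKO library. The members past 2-fold were near these shares, so their number is not read as a result about chaperones. Hsp90ab1 (-0.56 and -0.78) and Hspe1 (-0.46 and -0.55) were lower under 3% in both libraries. Hspa1a (-0.31 and -0.86), Hspa1b (-0.35 and -0.23) and Hsp90aa1 (-0.44 and -0.10), which hold most of the inducible UMIs, were below 0 in both libraries. In thinned cells of the 4E-BP1–cKO library Hspa1b (0.13) and Hsp90aa1 (0.18) were above 0, as they were with a limit of 2% (0.16 and 0.11). The inducible sum was at -0.26 and -0.30 and the constitutive sum at -0.60 and -0.92. Fos had log2 ratios of -1.52 and -1.55 and Jun of -0.57 and -0.66 in the same comparison. Cells under 3% had a median of 2354 UMIs against 5512 in the others in the control and 1972 against 4716 in the 4E-BP1–cKO library, and their share of UMIs on the nuclear RNA Malat1 was 4.68% against 2.74%, and 4.70% against 3.18%. The part of depth in these ratios was not tested beyond the thinned cells, in which the inducible sum stood at -0.42 and -0.04.

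**Figure D5:**
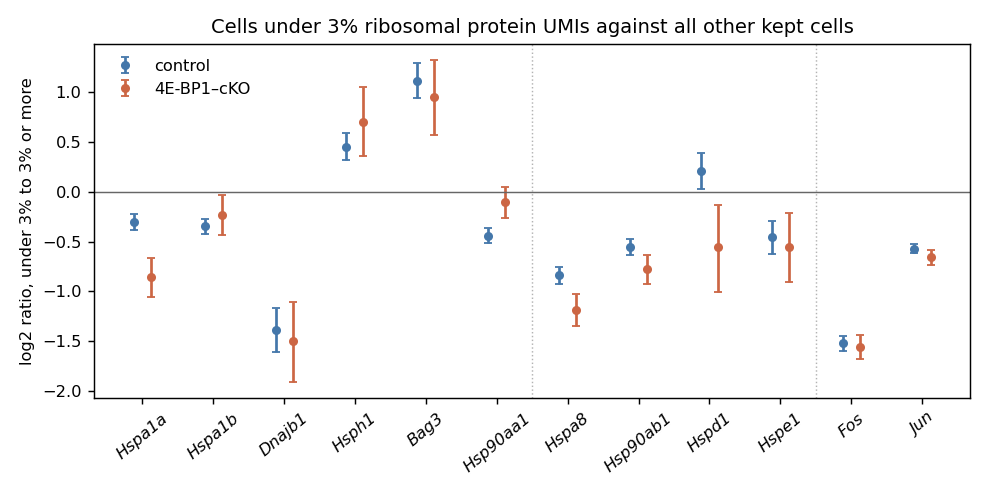
Log2 ratio of cells under 3% ribosomal protein UMIs to all other kept cells, in CPM of the UMIs without ribosomal protein genes, for each chaperone gene, Fos and Jun in the control (blue) and 4E-BP1–cKO (orange) library; bars are 95% intervals for counting error. Bag3 and Hsph1 lie above 0 and Dnajb1, Hspa8 and Fos far below it in both libraries, and Hspd1 is on opposite sides.

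Within the cells under 3%, those of the control with a UMI of the transcript Gm35188 (385 cells) had more inducible UMIs than those without (272 cells), at 5034 and 3658 CPM, and Bag3 was at 432 and 223 CPM. The order was the reverse among the 4E-BP1–cKO cells, at 2363 CPM (2199 to 2536) in 108 cells with and 2709 CPM (2500 to 2930) in 104 cells without. These intervals overlap. Bag3 was at 168 and 292 CPM there, on 55 and 67 UMIs. Cells with a Gm35188 UMI were deeper, with a median of 2469 against 2233 UMIs in the control and 2184.5 against 1752.5 in the 4E-BP1–cKO library. Whether the libraries differ in the order, and the part of depth in it, was not tested.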

How the data were processed

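The authors deposited, for each library, a table of raw UMI counts per gene and cell barcode made with Cell Ranger 8.0.1 on mm10 from 10x 3′ libraries; no source used here names the annotation release. The study also removed doublets with scDblFinder and reports fewer cells in each library than were kept here. Here no barcode was removed as a doublet, because cells were defined by the gene and mitochondrial limits alone. Scrublet (scanpy 1.11.5) called 4 control and 11 4E-BP1–cKO barcodes where 10.5 and 1.58 were expected. Removing the called barcodes is an alternative, but it does not restore the study's set of cells, in which the results were not tested. UMIs were summed over kept cells and given as CPM with exact Poisson intervals, ratios with exact conditional binomial intervals and shares with exact Clopper-Pearson intervals. Log2 ratios in the text used a pseudocount of 1 CPM. Fold values, intervals and the plotted log2 ratios used none. There is no p-value, because cells are not replicates, and "past 2-fold" stands in for a call. The ratio procedure was tested on simulated counts. Their molecules were drawn independently, so the test does not cover genes whose molecules clump in few cells. The 10 members, the gene lists, the marker lists and the 3% limit were chosen with earlier results of these data known. All 10 members are named, with the highest, lowest and most abundant genes of a list, some genes fixed by name (Fos, Jun, Hsf1, Hsf2, Hspa5, Hspa9, Dnaja1) and the 10 genes closest to the inducible sum by rho. Sqstm1 and Gm35188 were named after their values were seen, and some genes that the rule names are not reported here. Shared transcript ends were counted in GENCODE M39 transcripts, which is not the authors' annotation, and TMM factors came from edgeR 4.0.16.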

Additional observations from a re-analysis of the deposited data

Results flagged for a closer look

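For 2 genes the direction was opposite in parallel groups, and the difference itself was not tested. Hspd1, which encodes the mitochondrial chaperonin, had a log2 ratio of cells under 3% ribosomal protein UMIs to other cells of 0.21 in the control and -0.56 in the 4E-BP1–cKO library. Hspa8, the steady HSP70, had a log2 ratio of 4E-BP1–cKO to control of -0.24 in cells under 3% and 0.11 in cells at 3% or more. The intervals of all 4 ratios exclude equality, though they cover counting error only.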

How the results depend on the processing

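With 1 library per genotype, no spread between animals can be estimated, and depth limits the scarce genes: intervals for Bag3 or Hspd1 are several times wider than those for Hspa8. No paired analysis was possible because each group has 1 library, and no replicate could be left out. None of the 12 summed ratios and shares turned direction, apart from the constitutive ratio of 4E-BP1–cKO to control, whose interval included equality, and the cause of the shifts below was not tested. The inducible ratio of 4E-BP1–cKO to control (-0.82) ranged from -0.90 to -0.64: -0.90 without Hsp90aa1, -0.64 without Hspa1a and Hspa1b, and, added after seeing the data, -0.69 in cells under the median UMIs and -0.89 and -0.90 without the top 1% and 5% of cells by inducible share. The value under the median keeps ribosomal protein UMIs in the total, unlike the ratio given above for the same cells. The constitutive ratio moved to -0.30 in cells under 3% ribosomal UMIs and 0.027 without the top 10% of cells.

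For high to low Fos and Jun cells, the inducible ratio moved in the control to 1.56 (mitochondrial limit of 10%), 1.55 (without Hsp90aa1), 1.23 (without Hspa1a and Hspa1b), 0.93 (Fos alone), 1.34 (Jun alone) and 1.64 (3% or more ribosomal UMIs), and in the 4E-BP1–cKO library to 0.79 (3% or more), 1.37 (under 3%) and 1.26 (thinned). The constitutive ratio moved in the control to 0.76 (Fos), 0.81 (Jun), 0.86 (3% or more) and 1.02 (thinned), and in the 4E-BP1–cKO library to 0.78 (Fos), 0.86 (Jun), 0.79 (3% or more) and 0.87 (under 3%).

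For ribosome-poor to other cells, the inducible ratio moved in the control to -0.19 (without Hsp90aa1), -0.18 (without Hspa1a and Hspa1b), -0.048 (limit of 4%), -0.17 (total with ribosomal genes) and -0.42 (thinned), and in the 4E-BP1–cKO library to -0.40, -0.075, -0.058 (limit of 2%), -0.19 and -0.039 under the same settings but for the limit. The intervals of the 4E-BP1–cKO values -0.075 (-0.197 to 0.047), -0.058 (-0.155 to 0.039) and -0.039 (-0.235 to 0.157) included 0, so their direction is not settled. The constitutive ratio moved in the control to -0.46 (limit of 4%) and -0.51 (total with ribosomal genes), and in the 4E-BP1–cKO library to -0.75 (limit of 2%), -0.78 (4%) and -0.81 (total with ribosomal genes).

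The share of cells with an inducible UMI moved from 77.6% in the control to 84.3% (at least 500 genes), 66.4% (without Hsp90aa1), 61.2% (without Hspa1a and Hspa1b), 87.5% (25th percentile of depth), 92.2% (no thinning) and 58.6% (at least 2 UMIs). In the 4E-BP1–cKO library it moved from 67.7% to 73.9%, 51.2%, 56.5%, 81.4%, 82.2% and 43.5% under the same settings, and to 62.6% with the mitochondrial limit of 10%. The share was higher in the control under each of these settings. Removing Scrublet doublets, TMM factors (-0.78) and a pseudocount of 10 CPM left the inducible ratio within counting error.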

Other observations

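Barcodes left out for 5% or more mitochondrial UMIs carried fewer chaperone UMIs than the kept cells. The inducible set was at 2835 CPM (2527 to 3170) over 65 such barcodes of the control, beside 4788 CPM in the kept cells, and at 902 CPM (609 to 1288) over 25 of the 4E-BP1–cKO library, beside 2709 CPM. The constitutive set was at 2043 and 1624 CPM in these barcodes. Hspa1b had 106 UMIs in them in the control and 2 in the 4E-BP1–cKO library. These barcodes hold 108639 and 33246 UMIs, so single genes of the 4E-BP1–cKO library rest on few molecules.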
